A study of Danio rerio with 17 samples.

Results

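The RNAs described here are slbp2, bach2a, ino80db, sh2d5, pawr and ldlrad4, 6 of the 32520 zebrafish (Danio rerio) genes in the count tables. They are less known as vegetal RNAs, and they were chosen by their measured levels in these same libraries, which climbed from the animal to the vegetal end of the oocyte. The climb itself is therefore a description and carries no test. What follows is where along the axis each climb lay, how steady it was from oocyte to oocyte, and whether genes that code for partners and relatives of the encoded proteins shared it. Their gene identifiers are ENSDARG00000069428 for slbp2, ENSDARG00000036569 for bach2a, ENSDARG00000062226 for ino80db, ENSDARG00000014324 for sh2d5, ENSDARG00000045486 for pawr and ENSDARG00000070555 for ldlrad4.

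The animal-vegetal axis is the first axis of the fish egg. The animal pole is where the embryo proper will form, and the vegetal pole stores RNAs for later use. In the young oocyte many vegetal RNAs gather in the Balbiani body, a large body of organelles and RNA beside the nucleus, and are then released at the cortex of the vegetal pole. Vegetal RNAs known from earlier work include hwa, sybu and trim36, which act in setting the dorsal side of the embryo, and dazl, which acts in germ cells.

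Whole oocytes were frozen and cut with a cryostat across this axis, and each was divided into 5 segments, with segment A at the animal pole and segment E at the vegetal pole. Total RNA of the slices, 5.5 ng per library, was freed of ribosomal RNA and sequenced. The 17 libraries came from 4 oocytes. Segments A and C had a library from all 4, while oocyte 2 lacked E, oocyte 3 lacked B and oocyte 4 lacked D, and these 3 were not analysed here. The labels name no treatment, strain, age or stage, so the groups differ by label in position along the axis, and also in which oocytes they hold. Each oocyte gave at most 1 library per segment, so a segment's spread is a spread between oocytes. The labels do not say whether the oocytes came from different fish. Levels are given as CPM, the usual read counts relative to library size, after scaling by the trimmed mean of M values (TMM). With a set amount of RNA per library, CPM is a concentration among the RNAs of a segment and not a number of molecules, and in such bulk samples more molecules of one RNA and fewer of the others cannot be told apart.

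Reads in genes numbered 4054233 to 9319365 in the 5 libraries of oocyte 1 and 13833357 to 23672322 in the other 12, so that 3 reads stood for 0.127 to 0.740 CPM. Spike-in RNA took 0.185% to 0.802% of the reads in oocytes 2 to 4 and at most 0.00239% in oocyte 1, so oocyte 1 stands apart in this respect. All 10 oocyte markers passed the filter on low counts, with a summed level of 2997 to 4121 CPM per library. Most of this came from buc and h1m, which averaged 1624 and 1137 CPM, while zp2.1 averaged 2.00 CPM with reads in 6 libraries. Of the 19 follicle cell entries 6 passed. Their summed level was 103 to 392 CPM in A, 146 to 270.0 in B and 108 to 220 in C. It was 126 to 280 in D and 198 to 303 in E, most of it from CYP11A1. CYP17A1 averaged 38.7 CPM with reads in all 17 libraries, and krt8 averaged 13.2 CPM with reads in 14. An entry named FOXL2 and lhcgr had reads in 9 libraries each, and gsdf in 7. Among the entries with 0 reads in every library were amh, STAR, FSHR, inha and col1a1a. Of the 10 blood cell entries 2 passed, CORO1A with reads in 5 libraries and an entry named SLC4A1 with reads in 6. Summed levels were 0 to 38.8 CPM, and the hemoglobin genes listed (hbaa1, hbaa2 and hbae1.1) had 0 reads. The part of other cells in the levels of the 6 RNAs was not tested.

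The 6 RNAs fell into 2 kinds. Transcripts of slbp2, bach2a, ino80db and sh2d5 were well read everywhere, with at least 172 reads in each of the 17 libraries, and climbed 15.1-fold to 58.2-fold from the mean of A to the mean of E. Transcripts of pawr and ldlrad4 were nearly absent from segment A and reached lower levels in E, with large differences between oocytes on the way. All 6 had their highest mean in E, and all 6 had every library of E above every library of A. Of the 12549 genes tested, 4.61% had the ends apart in that direction. The share for the 6 RNAs follows from how they were chosen, and nothing is read from it. The plot of levels in every library shows each RNA along the axis.

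**Figure D1:**
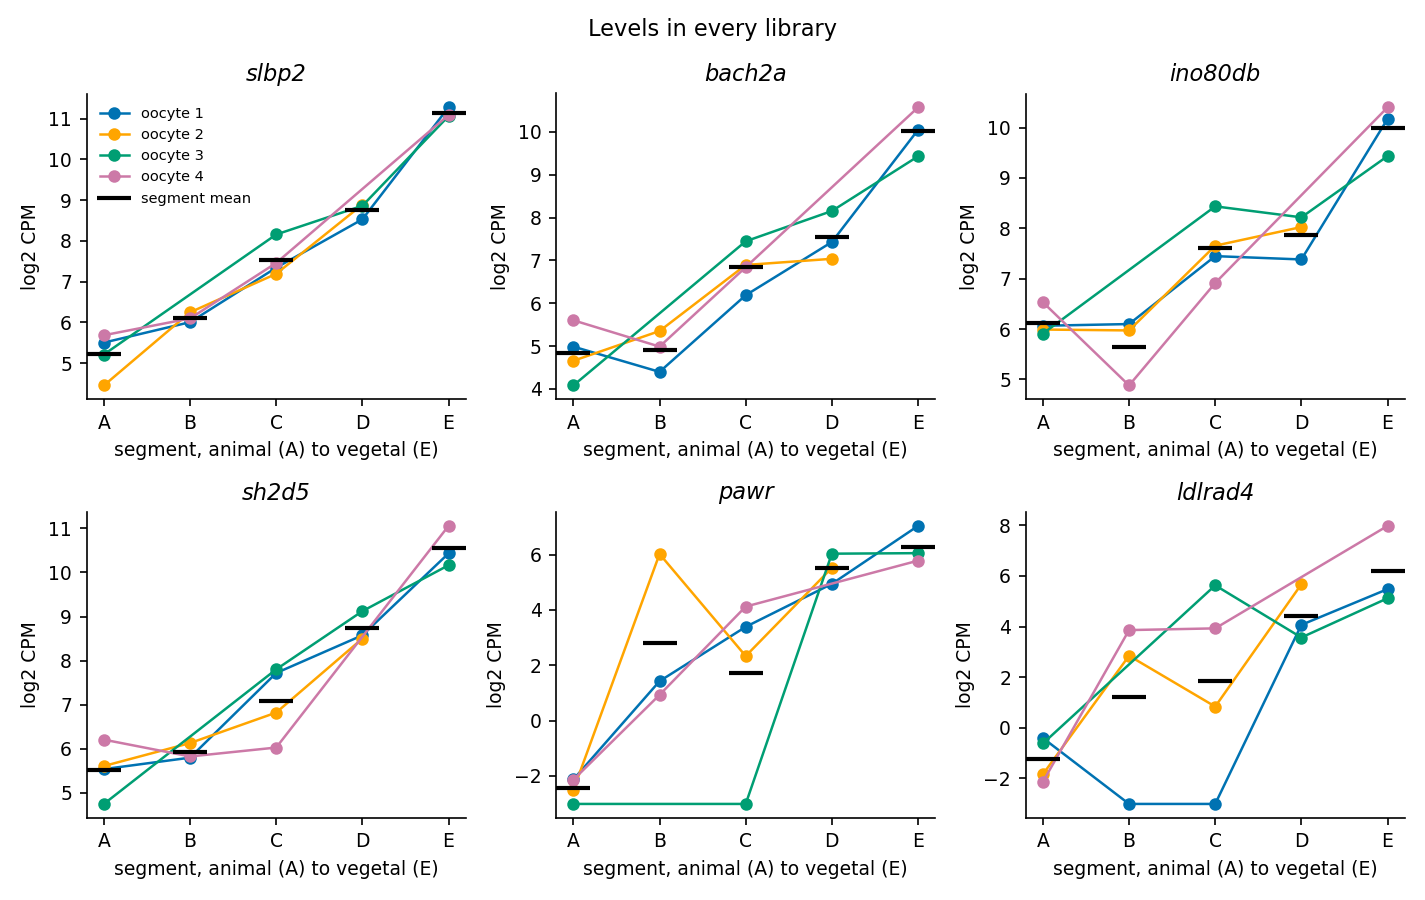
Levels of the 6 RNAs on a log2 CPM scale (prior count of 2 reads) in every library, by segment from A (animal) to E (vegetal), with a panel and a vertical scale for each RNA. Points of 1 oocyte are joined, also across a segment that was not analysed, and black bars are segment means. The lines of slbp2 lie close together and rise throughout, from 21.8 to 51.4 CPM in A to at least 2134 CPM in E, whereas those of pawr and ldlrad4 cross and drop to 0 reads in single inner libraries.

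The steadiest climb was that of slbp2. The encoded protein is known in frogs and fish as the form of the stem-loop binding protein made in oocytes, which binds the 3′ end of histone mRNAs and keeps them in store without translation. In segment A the levels were 45.3, 21.8, 37.0 and 51.4 CPM in oocytes 1 to 4. In segment B they were 64.2, 75.9 and 68.4 CPM in oocytes 1, 2 and 4. In segment C they were 162, 146, 285 and 176 CPM in oocytes 1 to 4. Every library of B lay above every library of A, and every library of C above every library of B, with oocyte 2 lowest in A and oocyte 3 highest in C. Segment D held 369, 474 and 465 CPM in oocytes 1, 2 and 3. Segment E held 2475, 2134 and 2175 CPM in oocytes 1, 3 and 4. No neighbouring segments overlapped for slbp2, and on the log2 scale the SD was 0.12 in both B and E, 0.54 in A, 0.43 in C and 0.20 in D.

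The segment means of slbp2 were 38.9 ± 12.8 CPM (SD, n = 4) in A, 69.5 ± 5.92 (n = 3) in B, 192 ± 63.2 (n = 4) in C, 436 ± 58.1 (n = 3) in D and 2261 ± 186 (n = 3) in E. The fitted log2 fold change from A to E was 5.86 ± 0.32 (SE), and the differences within the 3 oocytes with both ends were 5.40 to 5.85. On the scale of mean log2 CPM the steps were 0.90 from A to B, 1.42 from B to C, 1.22 from C to D and 2.38 from D to E. The last step was thus the largest and held 40.2% of the whole difference. Between neighbouring libraries of 1 oocyte, counting a step across a missing segment as 1, there were 13 steps in all, and slbp2 went up at all 13. Of the 12549 tested genes 4 did so (0.0319%), the others being LEF1, GOLGA3 and TRIM36, the entry for trim36. LEF1 and GOLGA3 are named here only because their values were seen to do this. As slbp2 was chosen by its climb along the axis, nothing is read from its place among these genes. The 13 rises of slbp2 were found with relative log expression (RLE) factors, with library sizes alone and with the size factors of the authors' normalized table as well, where the number of such genes was 4, 4 and 11.

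The mean level of bach2a stayed low over the animal end and rose mostly in 2 steps. Its mammalian counterpart BACH2 is a transcription factor of the BTB and CNC class that binds DNA together with small Maf proteins and mostly represses. Segment A held 31.6, 25.1, 16.8 and 48.5 CPM in oocytes 1 to 4. Segment B held 21.0, 40.8 and 31.6 CPM in oocytes 1, 2 and 4. These ranges overlapped fully, and the difference of their mean log2 levels was 0.08, with an increase in 1 of 3 oocytes. Segment C held 72.9, 119, 174 and 115 CPM in oocytes 1 to 4, and every one of these exceeded every library of B. Segment D held 172, 131 and 285 CPM in oocytes 1, 2 and 3. Segment E held 1059, 690.0 and 1524 CPM in oocytes 1, 3 and 4. The libraries of C and D overlapped, and those of D and E did not.

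The means of bach2a were 30.5 ± 13.4 CPM (SD, n = 4) in A, 31.1 ± 9.89 (n = 3) in B, 120.2 ± 41.7 (n = 4) in C, 196 ± 79.5 (n = 3) in D and 1091 ± 418 (n = 3) in E, with a fitted log2 fold change from A to E of 5.16 ± 0.39 (SE). The steps of mean log2 CPM from B to C and from D to E were 1.93 and 2.48, against 0.70 from C to D. The first of these took 37.2% of the whole difference and the second 47.8%. From C to D the level rose in all 3 oocytes with both segments, by 0.14 to 1.24. The pair of larger steps thus describes the means and not every oocyte. Among oocytes with both segments, the step from B to C was the most alike, with 1.54 to 1.85 in oocytes 1, 2 and 4. Oocyte 3 had no library of B, so its step is unknown, and it rose by 3.36 from A to C. The step from D to E was 2.62 in oocyte 1 and 1.28 in oocyte 3.

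The segment means of ino80db had the same pair of largest steps, with smaller changes before and between them. Its human counterpart INO80D is a subunit of the INO80 complex, which moves and edits nucleosomes. Segment A held 66.8, 63.5, 60.0 and 92.4 CPM in oocytes 1 to 4. Segment B held 68.4, 62.7 and 29.3 CPM in oocytes 1, 2 and 4. Within an oocyte the A to B change was close to 0 in oocytes 1 and 2 and was -1.65 on the log2 scale in oocyte 4. Segment C held 174, 201, 346 and 121 CPM in oocytes 1 to 4. Segment D held 167, 260.4 and 298 CPM in oocytes 1, 2 and 3. The libraries of C stood clear of those of B, but those of C and D overlapped. Segment E held 1151, 691 and 1351 CPM in oocytes 1, 3 and 4, all above segment D.

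Means of ino80db were 70.7 ± 14.8 CPM (SD, n = 4) in A, 53.5 ± 21.1 (n = 3) in B, 211 ± 96.4 (n = 4) in C, 242 ± 67.4 (n = 3) in D and 1064 ± 339 (n = 3) in E. Its climb was the smallest of the 6, with a fitted log2 fold change of 3.91 ± 0.36 (SE) and differences of 3.52 to 4.10 within oocytes. The steps of mean log2 CPM were -0.47, 1.96, 0.26 and 2.13 in order from A to E. The fall from A to B was smaller than the combined SD of 0.73 and reversed with the authors' size factors, under which the mean was 55.9 in A and 61.5 in B. Those factors put the median of all tested genes 0.49 higher in B than in A on the log2 scale. From C to D, 1 of 3 oocytes went up, and of all 13 steps ino80db went up at 9 and down at 4.

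The climb of sh2d5 was spread over the vegetal side. In mammals SH2D5 is an adaptor protein of the brain that binds Bcr, a protein that switches off the small GTPase Rac. Segment A held 46.4, 48.8, 26.8 and 73.9 CPM in oocytes 1 to 4. Segment B held 55.6, 70.0 and 56.7 CPM in oocytes 1, 2 and 4. Segment C held 211, 113, 223 and 65.2 CPM in oocytes 1 to 4. The ranges of A and B overlapped, and so did those of B and C, where oocyte 4 held 56.7 and 65.2 CPM. Segment D held 381, 362 and 557 CPM in oocytes 1, 2 and 3. Segment E held 1382, 1148 and 2129.9 CPM in oocytes 1, 3 and 4. Segments C, D and E did not overlap.

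The means of sh2d5 were 49.0 ± 19.3 CPM (SD, n = 4) in A, 60.8 ± 8.01 (n = 3) in B, 153 ± 76.5 (n = 4) in C, 434 ± 108 (n = 3) in D and 1553 ± 513 (n = 3) in E, with a fitted log2 fold change of 4.99 ± 0.37 (SE). The steps of mean log2 CPM were 0.39, 1.17, 1.64 and 1.82 in order from A to E, and each was larger than the one before. This order describes the means and not every oocyte. In oocyte 1 the step from C to D, 0.86, was smaller than that from B to C. In oocyte 3 the step from C to D was 1.32 and that from D to E 1.04. The last 2 steps of the means had combined SDs of 0.90 and 0.57. The step from B to C differed most between oocytes, with 1.92 in oocyte 1, 0.69 in oocyte 2 and 0.20 in oocyte 4. In oocyte 4 the level in C was below that in A, so the rise from C to E, 5.03, was larger than the difference of 4.85 between the ends. Of the 13 steps sh2d5 went up at 12.

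In 2 of the 6 RNAs the animal end was almost empty. The first is pawr, whose mammalian counterpart PAWR (also called Par-4) promotes cell death and binds atypical protein kinase C and the factor WT1. Its reads in segment A numbered 1, 1, 0 and 2 in oocytes 1 to 4, all at or under the floor of 3 reads. In segment B they were 21, 1460 and 41 in oocytes 1, 2 and 4, or 2.56, 64.8 and 1.78 CPM. In segment C they were 80, 68, 0 and 395 in oocytes 1 to 4, or 10.4, 4.91, 0 and 17.3 CPM. The inner segments thus ranged from no read in C of oocyte 3 to 64.8 CPM in B of oocyte 2, and B and C overlapped. Segment D held 30.6, 45.8 and 65.3 CPM in oocytes 1, 2 and 3. Segment E held 131, 66.2 and 54.8 CPM in oocytes 1, 3 and 4. Segments D and E overlapped, and both lay above every library of C.

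With a mean of 84.0 ± 41.1 CPM (SD, n = 3) in E, pawr was at least 419-fold higher than 3 reads in each library of A would allow. From A to B it went up in all 3 oocytes with both segments, from at most 2 reads to at least 21. The mean of B, 23.1 ± 36.2 CPM, rested on oocyte 2. Without that library B averaged 2.17 CPM, the largest step was that between C and D, not that between A and B, and the means rose at every step. In oocyte 3 the levels of D and E differed by 0.019 on the log2 scale, and the whole climb of that oocyte lay between C and D.

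The second is ldlrad4. In human cells LDLRAD4 is a membrane protein that binds Smad2 and Smad3 and dampens signalling by TGF-beta. Its reads in segment A were 6, 3, 9 and 2 in oocytes 1 to 4. Segment B held 0, 7.06 and 14.4 CPM in oocytes 1, 2 and 4. Segment C held 0, 1.66, 49.3 and 15.1 CPM in oocytes 1 to 4. The order of the oocytes changed from segment to segment, and B and C overlapped. Segment D held 16.6, 50.8 and 11.7 CPM in oocytes 1, 2 and 3. Segment E held 44.4, 34.6 and 252 CPM in oocytes 1, 3 and 4. The library of oocyte 4 was far above the others of E, and D and E overlapped.

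The mean of ldlrad4 was 0.354 ± 0.263 CPM (SD, n = 4) in A and 110.2 ± 123 CPM (n = 3) in E, with a fitted log2 fold change of 8.28 ± 1.78 (SE). Within oocytes the differences between the ends were 5.88 in oocyte 1 and 5.74 in oocyte 3, and none is given for oocyte 4, which had 2 reads in A. Without segment E of oocyte 4 the mean of E was 39.5 CPM and the share of E in the profile was 43.9% instead of 68.6%. In oocyte 1 ldlrad4 had 0 reads in B and in C and 69 in D, whereas oocyte 4 had 2 reads in A, 331 in B and 345 in C.

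A drop to a few reads in single libraries was common among weakly read genes. Of the 1825 tested genes with a mean of 20 to 40 CPM, the range that holds pawr and ldlrad4, 1079 (59.1%) had at least 1 library with 3 or fewer reads, with a median of 1 such library. For pawr the number was 5 libraries and for ldlrad4 4, in each case with 2 at 0 reads. All 4 libraries of segment A were at or under 3 reads for 1 of those 1825 genes, which was pawr. As pawr was chosen by its climb from A to E, nothing is read from this. Among 1124 genes with a mean of 200 to 600 CPM, the range of slbp2, bach2a, ino80db and sh2d5, 0 genes had such a library.

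Set side by side, the steps differed in place and in steadiness, as the plot of step sizes shows. Every library of the later segment lay above every library of the earlier one for 2 of the 6 RNAs from A to B (slbp2 and pawr), where 2.22% of all tested genes did so. The number was 3 from B to C (slbp2, bach2a and ino80db; 1.81% of all tested genes), 3 from C to D (slbp2, sh2d5 and pawr; 2.89%) and 4 from D to E (slbp2, bach2a, ino80db and sh2d5; 5.94%). The median step over the 6 RNAs was 0.65, 1.30, 1.43 and 1.97 on the log2 scale in order from A to E, beside medians of 0.011, -0.028, 0.0086 and 0.053 over all tested genes. The medians of the 6 include steps of pawr and ldlrad4 that depend on the prior count, and their order is not a shared pattern. For slbp2, bach2a and ino80db the steps of means from B to C were 1.42, 1.93 and 1.96. Those from C to D were smaller, at 1.22, 0.70 and 0.26, while sh2d5 went the other way, with 1.17 and 1.64. These counts and steps come from the differences that chose the RNAs and are given as description. Over the 13 steps within oocytes slbp2 went up at 13, sh2d5 at 12, bach2a and pawr at 11, and ino80db and ldlrad4 at 9. The counts for ino80db, sh2d5 and pawr depended on the scaling, with 11, 13 and 10 under the authors' size factors. Without oocyte 1 the fitted log2 fold changes from A to E were 5.87 for slbp2, 5.20 for bach2a, 3.83 for ino80db, 5.04 for sh2d5 and 9.07 for ldlrad4, and all 6 RNAs still had their highest mean in E. The largest step then lay between B and C for ino80db and between C and D for sh2d5, in both cases instead of between D and E, and between A and B instead of C and D for ldlrad4.

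**Figure D2:**
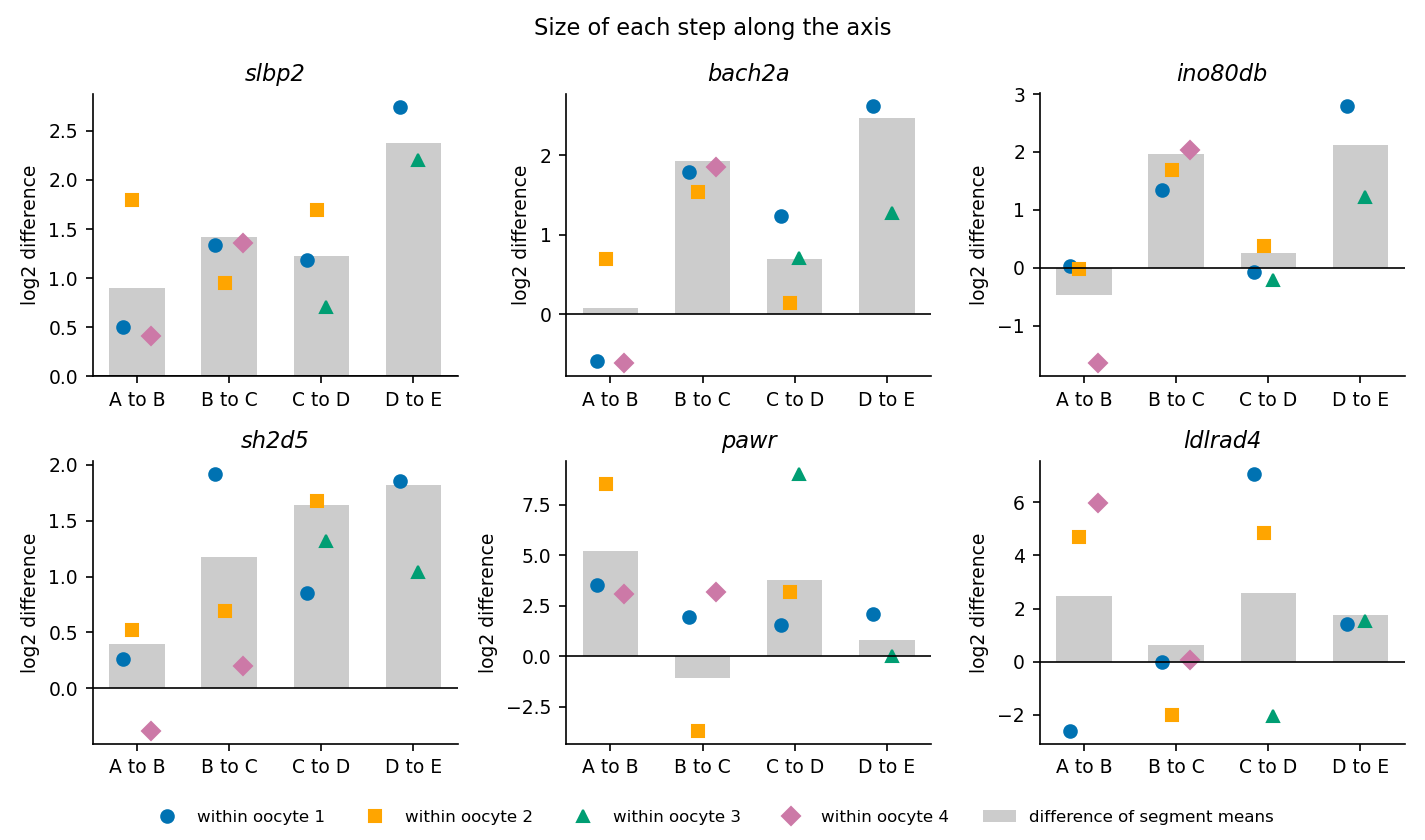
Size of each step between neighbouring segments for the 6 RNAs, as differences of log2 CPM (vertical axis, its own scale in each panel). Grey bars are differences of segment means, and points are differences within an oocyte that has both segments, which are 3 oocytes for the first 3 steps and 2 for the step from D to E. All points of slbp2 are above 0, and those of pawr and ldlrad4 lie on both sides of 0. For the step from B to C the points of bach2a run from 1.54 to 1.85 and those of ino80db from 1.35 to 2.03. Points of pawr and ldlrad4 that start or end in a library with 3 or fewer reads depend on the prior count of 2 reads, and their sizes are not read.

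The mean CPM of all 6 RNAs was highest in segment E, which is a concentration and not an amount per segment. As a share of the summed segment means, E took 75.4% for slbp2, 74.3% for bach2a, 69.0% for sh2d5, 68.6% for ldlrad4, 64.9% for ino80db and 51.7% for pawr. The median over the 8558 tested genes that averaged 10 CPM or more was 19.7%, and the 6 RNAs ranked 7, 10, 13, 15, 24 and 81 among these genes in that order. High shares and ranks follow from how the 6 RNAs were chosen, and nothing is read from them. The published vegetal RNAs, as a yardstick, had 89.4% for hwa, 85.4% for dazl, 81.2% for sybu, 74.7% for trim36, 73.6% for vrtn and 61.5% for celf1. Thus slbp2 and bach2a lay beside trim36 and vrtn, and ino80db beside celf1, whereas pawr had the lowest share of all these RNAs. For pawr a further 29.1% lay in D, and without oocyte 1 the share in E was 38.6%.

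**Figure D3:**
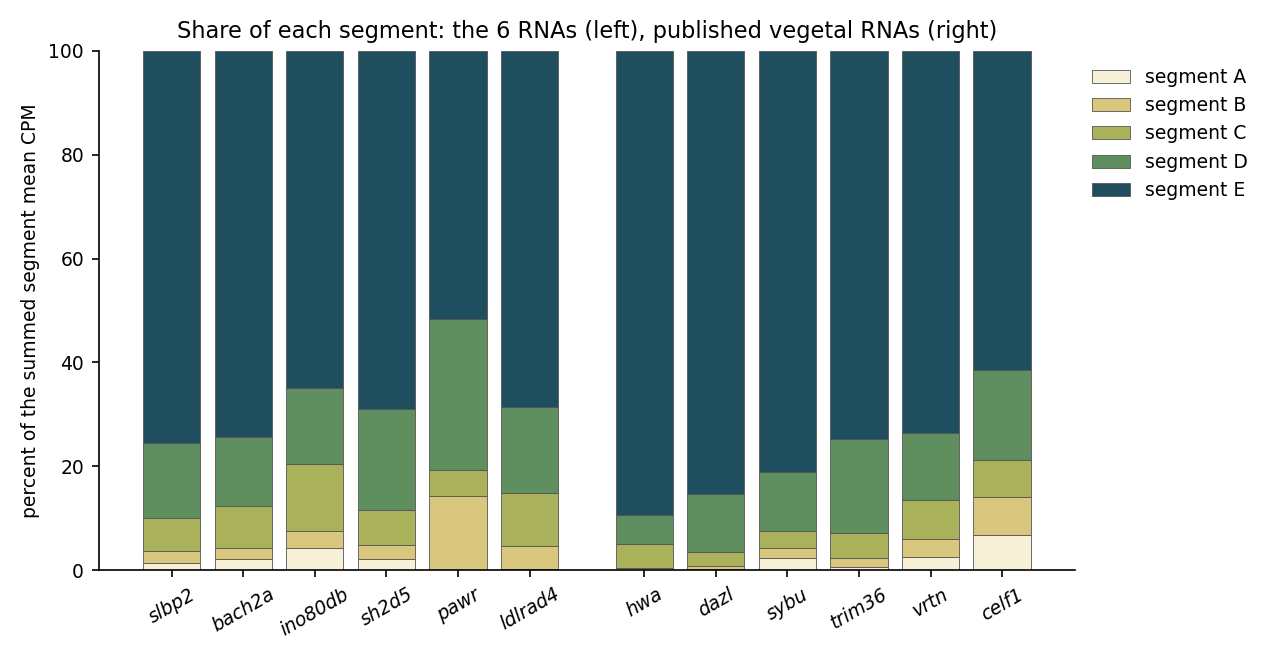
Share of each segment in the sum of the 5 segment mean CPM values, in percent (stacked bars, each adding to 100%), for the 6 RNAs on the left and for 6 published vegetal RNAs on the right. Segment E takes 51.7% of the bar for pawr and 75.4% for slbp2, and 89.4% for hwa.

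One library was high for most of the 6 RNAs. Segment C of oocyte 3 was the highest of the 4 libraries of C for slbp2, bach2a, ino80db, sh2d5 and ldlrad4, and it had 0 reads of pawr. It also had the fewest genes with a read, 8535 beside 9682 to 11280 in the other libraries, and the part of this in its levels was not tested. The published vegetal RNAs had a mean log2 CPM of 5.90 there beside 5.27 to 5.99 in the other libraries of C, but they went both ways. Of the 4 libraries of C, it was the highest for dazl (57.9 CPM) and vrtn (146 CPM) and the lowest for sybu (57.8 CPM) and celf1 (19.98 CPM). Without this library the mean of C was 161 ± 14.8 CPM (SD, n = 3) for slbp2, 102 ± 25.5 for bach2a, 165 ± 41.2 for ino80db, 130 ± 74.2 for sh2d5 and 5.58 ± 8.27 for ldlrad4, so the SD of slbp2 in C was 14.8 instead of 63.2 CPM. For ldlrad4 the level of C then fell below that of B, at 7.15 ± 7.19 CPM.

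Deviations from the segment means were compared between the 6 RNAs as well. Across the 17 libraries, Pearson's r of these deviations was 0.34 to 0.65 for the 6 pairs among slbp2, bach2a, ino80db and sh2d5, and 0.13 to 0.56 without segment C of oocyte 3. The points share libraries, oocytes and depth, pairs of other genes of like level were not set beside them, and no test was made. The same deviations had r of -0.13 to 0.21 with the mean of the published vegetal RNAs. For pawr the r with each of these 4 RNAs was -0.28 to -0.071 over 17 libraries and 0.14 to 0.36 without segment C of oocyte 3, so its sign rested on that library. For ldlrad4 the r with the same 4 RNAs was -0.11 to 0.46 over 17 libraries. Without segment C of oocyte 3 it was -0.40 to 0.35, negative with ino80db and sh2d5 and positive with slbp2 and bach2a.

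By level, 8 of the 18 nearest named genes, 3 for each RNA, were others of the 6 RNAs. All were among slbp2, bach2a, ino80db and sh2d5, with each pair counted from both sides, and pawr and ldlrad4 took no part. As the RNAs were chosen by their climb in these same libraries, nothing is read from this count. The search covered the 8557 other genes that averaged 10 CPM or more. Entries without a symbol, or with a name that has a colon or starts with LOC or zgc, were passed over whatever their r. Among those left, the highest Pearson's r of log2 CPM over 17 libraries with slbp2 was that of bach2a (0.966). It was followed by sh2d5 (0.962) and fastk (0.956). For bach2a the order was slbp2 (0.966), sh2d5 (0.957) and ino80db (0.956). For ino80db it was bach2a (0.956), fastk (0.948) and TMEM104 (0.948), and for sh2d5 slbp2 (0.962), fastk (0.959) and bach2a (0.957). The climb of fastk from A to E, 2.74 on the log2 scale, was smaller than that of any of the 6 RNAs. Of the named genes, the nearest to pawr were NUDT9 (0.882), FAM135A (0.876) and SULF1 (0.842), and those to ldlrad4 were mast3b (0.847), GATAD2B (0.835) and flna (0.826). These correlations follow the shared axis and are given as likeness only.

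The close relatives of these genes did not pass the test between the ends. Differences between E and A were tested with the edgeR quasi-likelihood F-test and Benjamini-Hochberg adjustment over all 12549 genes, by which 1.91% were called (adjusted p under 0.05), 129 of them with more RNA in E and 111 with less. With the authors' size factors the split was 156 and 77, and without oocyte 1 it was 94 and 60. The relative of slbp2 is slbp, the stem-loop binding protein of dividing cells. Its levels in E were 58.2, 74.9 and 52.6 CPM in oocytes 1, 3 and 4. In the other 14 libraries they ranged from 0 to 30.2 CPM, the highest in segment D of oocyte 3, so that E did not overlap with any other segment. Of all tested genes, 4.61% had every library of E above every library of A, and 5.94% above every library of D. The share with E above all other segments at once was not counted. Its log2 fold change from A to E was 3.68 ± 2.07 (SE; edgeR adjusted p of 0.667), and the fold rests on reads from 0 to 157 in A.

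The other relatives had no such shape. The second gene for the same INO80 subunit, listed as INO80D, had 113 ± 15.1 CPM (SD, n = 4) in A, 156 ± 62.8 (n = 3) in B, 133 ± 70.4 (n = 4) in C, 253 ± 40.4 (n = 3) in D and 154 ± 65.9 (n = 3) in E. Its log2 fold change from A to E was 0.45 ± 0.41 (edgeR adjusted p of 0.978), beside 3.91 for ino80db. Of the Bach relatives, bach1a went from 47.5 ± 19.9 CPM in A to 36.3 ± 18.3 in E (log2 fold change -0.39 ± 0.82, edgeR adjusted p of 1), and BACH2 from 5.04 ± 9.74 to 2.30 ± 2.61 CPM (-1.13 ± 2.94, edgeR adjusted p of 1). The entry BACH1 had 0 reads in all libraries. Both genes related to ldlrad4 had an edgeR adjusted p of 1, PMEPA1 at 0.78 ± 2.31 and ldlrad3 at -0.75 ± 2.73. A second entry named LDLRAD4 (ENSDARG00000054941) had 17.9 ± 12.4 CPM in A and 68.2 ± 68.0 in E (1.93 ± 1.15 on the log2 scale, edgeR adjusted p of 0.697). Reads that fit more than 1 place were not counted in any gene, so values of near-identical copies are uncertain.

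**Figure D4:**
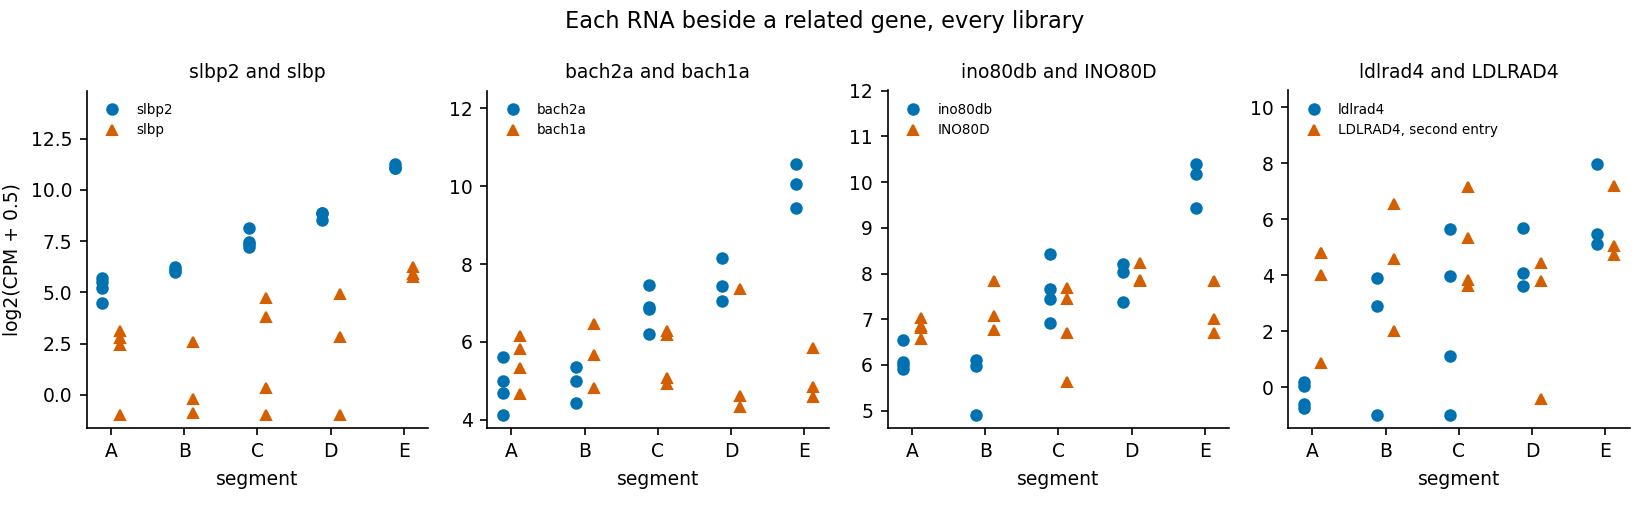
Levels in every library on a log2(CPM + 0.5) scale for slbp2, bach2a, ino80db and ldlrad4 (circles), each beside a related gene (triangles), by segment from A to E. Of these related genes only slbp has its 3 libraries of E above all its other libraries, at 52.6 to 74.9 CPM; INO80D has 104 to 228 CPM in E, beside 691 to 1351 for ino80db.

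Genes for partners and pathways of the 6 proteins were tested between the ends as well. The lists held 121 entries, of which 87 passed the filter, and 0 of the 87 were called by edgeR between E and A, where 1.91% of all tested genes were. At an unadjusted edgeR p under 0.05 there were 3 of the 87, all lower in E, beside 1010 of the 12549 tested genes. DESeq2 called 1 of the 87, and its counts over all tested genes are given in the closing section. Of the 240 genes called among all those tested, 233 had a mean of at least 50 CPM, and 37 of the list genes did. Of these 37, edgeR called 0, with 2 at an unadjusted p under 0.05, where it called 5.36% of the 4346 genes at that level. The gene called by DESeq2 is not among the 37. Their log2 fold changes lay between -2.40 and 0.65, with a median of -0.08. These lists were chosen with results of these data known. Whether they differ from genes of like level was not tested.

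In order of the lists, of 18 genes for processing histone mRNAs 9 were higher in E, and the list's median log2 fold change was 0.02. Its well read members include casp8ap2 (-0.44 ± 0.31, edgeR adjusted p of 0.830), npat (-0.14 ± 0.29, edgeR adjusted p of 1) and SYMPK (-0.14 ± 0.41, edgeR adjusted p of 1). Both NPAT and CASP8AP2 act at histone genes, and SYMPK is the scaffold of the enzyme that trims histone mRNAs. Of the 9 Bach partners and relatives 0 were higher in E, with a median of -0.96 beside 0.0008 over all tested genes. Of the 9, 1 had 0 reads at both ends. These genes had SEs of 0.82 to 4.71 where one could be given, edgeR called 0 of them, and no fall of the list is read from this. They include nfe2l3, another CNC factor (-0.96 ± 1.71, edgeR adjusted p of 1). Of the small Mafs, MAFK had a mean of 2.14 CPM in A and 0 reads in E, and maff had 2.53 and 2.16 CPM.

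Of 14 INO80 subunit genes 7 were higher in E, with a median of 0.03. The motor subunit INO80 had a log2 fold change of 0.11 ± 0.66 and the subunit NFRKB 0.13 ± 0.31, both with an edgeR adjusted p of 1. RUVBL1, one of the ring-forming ATPases, had 0.39 ± 0.41 (edgeR adjusted p of 1). Of 8 genes for Bcr, its relative Abr and Rac, 2 were higher, with a median of -0.44. ABR had 82.8 ± 41.8 CPM in A and 15.6 ± 13.0 in E (-2.40 ± 1.01, edgeR adjusted p of 0.510), and rac1a had -0.51 ± 0.34 (edgeR adjusted p of 0.765).

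Of 19 genes for partners of Pawr 9 were higher, with a median of -0.04. The atypical kinase gene PRKCI had -0.34 ± 0.54 (edgeR adjusted p of 1), while prkacaa, a catalytic subunit of protein kinase A, had 175 ± 36.0 CPM in A and 77.8 ± 26.3 in E (-1.17 ± 0.52, edgeR adjusted p of 0.579). Of 19 genes around Ldlrad4 and the Smads 10 were higher, with a median of 0.11. SMAD2, whose product human LDLRAD4 is known to bind, was at 949.5 ± 141 CPM in A and 896 ± 144 in E (-0.08 ± 0.23, edgeR adjusted p of 1). Of the entries named SMAD4, ENSDARG00000012649 had 15.6 ± 16.5 CPM in A and at most 2 reads in any library of E, with an edgeR adjusted p of 0.604. It is the gene called by DESeq2, at an adjusted p of 0.0178. The other, ENSDARG00000075226, had 203 ± 58.1 and 221 ± 149 CPM.

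**Figure D5:**
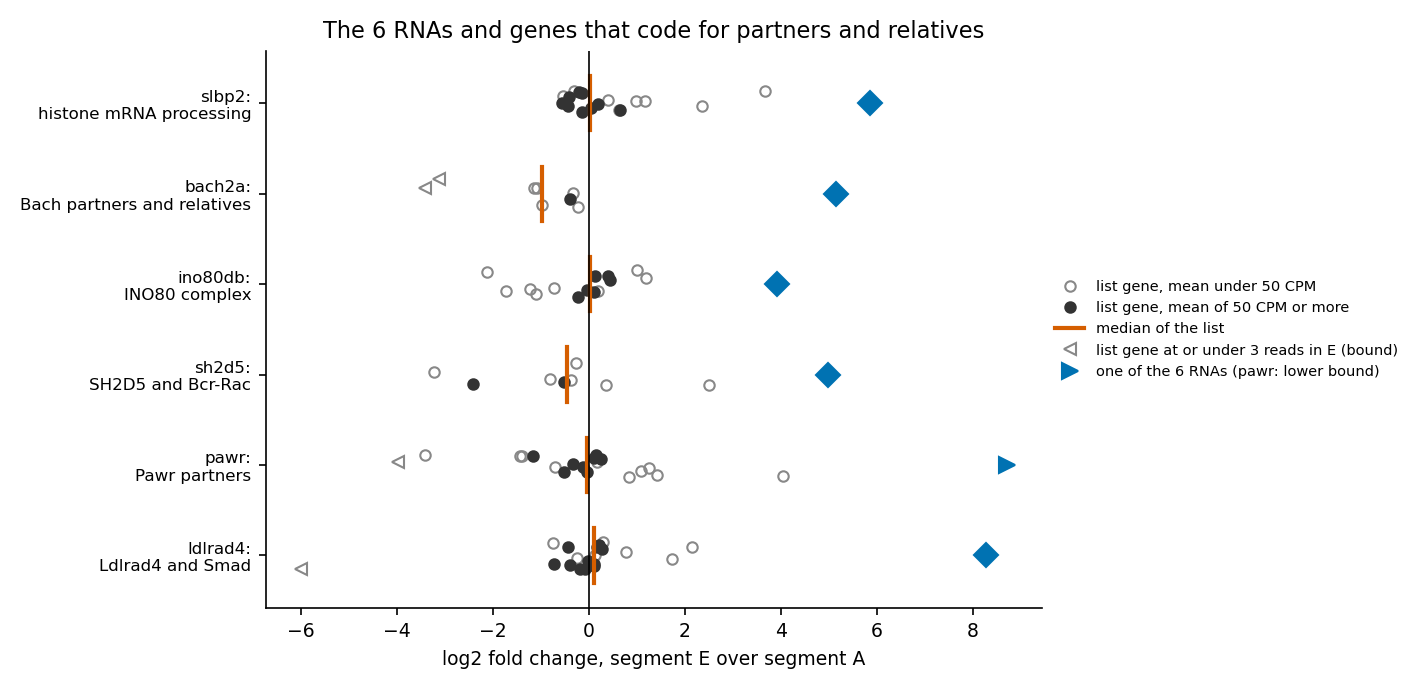
Log2 fold change from segment A to segment E of the tested genes in 6 lists (circles; filled where the mean over 17 libraries is at least 50 CPM), each list named with the RNA it goes with, and of that RNA (diamond). Left-pointing triangles are list genes at or under 3 reads in E, shown at their bound, the right-pointing triangle is the lower bound of pawr, and 2 list genes with 0 reads at both ends are not drawn. The filled circles lie between -2.40 and 0.65, and the list medians between -0.96 and 0.11, beside 3.91 or more for the 6 RNAs.

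Between neighbouring segments edgeR called 1 of the 87 list genes, in the step from C to D. In that step 5 list genes had an unadjusted edgeR p under 0.05, beside 711 of the 12549 tested genes, and DESeq2 called 5 list genes. In the other steps 0 of the 87 were called by edgeR, where it called 0.00797% of all tested genes from A to B, 0.0478% from B to C and 0.175% from D to E. At an unadjusted edgeR p under 0.05 these other steps had 3, 3 and 2 list genes, beside 602, 627 and 508 of all tested genes. DESeq2 called 2, 0 and 2 list genes, and its counts over all tested genes are given in the closing section. SNRPB, which codes for a core protein of small nuclear ribonucleoproteins, ranged from 123 to 207 CPM in segment A and from 120.0 to 185 in B. It held 94.7, 96.0, 51.2 and 34.0 CPM in segment C of oocytes 1 to 4. In segment D it held 299, 265 and 239 CPM in oocytes 1, 2 and 3. In segment E it held 109, 182 and 260 CPM in oocytes 1, 3 and 4. C was thus the lowest segment, below A and B in every library (-1.06 ± 0.40 from B to C on the log2 scale, edgeR adjusted p of 0.874). D lay above C in every library, while E and D overlapped. From C to D its log2 fold change was 1.95 ± 0.40 (SE; edgeR adjusted p of 0.0205), in a step where 0.104% of all tested genes were called. Without segment D of oocyte 1, segment D of oocyte 2, segment C of oocyte 3 or segment C of oocyte 4, the edgeR adjusted p was 0.146, 0.106, 0.0886 and 0.109, at log2 fold changes of 1.87, 1.95, 1.84 and 1.73. It was also above 0.05 without any 1 of the 4 oocytes, at 0.0638 to 0.148, with log2 fold changes of 1.73 to 2.14.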

How the data were processed

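RNA was measured by sequencing in 17 libraries of 5 segments from 4 oocytes, each assigned to its segment and oocyte from the labels. The authors deposited raw counts of reads per gene for each library, with 32520 Ensembl genes, 92 spike-in entries and 5 summary entries. In addition, the authors deposited normalized signal in 1 table, which a factor per library turned into whole reads for 100% of the values (tolerance 0.01), equal to the counts. Reads were processed with Trimmomatic, STAR 2.5.3a, HTSeq and DESeq2 on GRCz11, per the submitters' processing notes. The annotation release, strand setting and parameters are not given in the sources used here, so overlapping and antisense genes are uncertain. Per the labels' protocols, RiboCop and SENSE Total RNA-Seq kits were used. Of the deposited entries, 4.60% to 6.10% lay outside genes, 0.502% to 0.633% in overlapping genes and 6.88% to 14.2% had more than 1 alignment. These and the spike-ins stayed out of library sizes and tests.

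Genes were tested where filterByExpr of edgeR 4.0.16 (minimum count 10, by segment) retained them, which left 12549 genes, the 6 RNAs among them, with 99.8% of the reads. Counts were scaled by TMM and fitted with 1 coefficient per segment over all 17 libraries. The quasi-likelihood F-test was 2-sided, with Benjamini-Hochberg adjustment over all tested genes within each comparison, and calls are adjusted p-values under 0.05. SE was taken as |log2 fold change| over the root of F. Log2 CPM used a prior count of 2, and a segment with 3 or fewer reads in every library was held to be at the floor, which covers counting error only. A bound sets 3 reads in each library of that segment. DESeq2 1.42.0 served as an alternative test. The fit of E against A was also run on simulated independent libraries, with changes set in segment E of genes of at least 50 CPM. That run did not cover the steps, changes in weaker genes or pairing by oocyte, and nothing is read from it here. The other alternatives were other scalings, no filter, oocytes or single libraries left out and the oocyte as a block.

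The 6 RNAs, the lists and the tests were chosen with earlier results of these data known. The genes named are the 6 RNAs, list genes called in any comparison, the relatives and the published vegetal RNAs. Also named are the 3 genes most correlated with each of the 6, among tested genes that averaged 10 CPM or more. Entries without a symbol, or with a name that has a colon or starts with LOC or zgc, were passed over in that search. Other list genes were named after their values were seen, as examples of each list. Symbols came from a table that covers 29201 of the identifiers (89.8%) and lists pawr and ldlrad4 in capitals. List symbols without an entry were matched without their copy letter, and 5 had no match. Libraries of 1 oocyte are paired by its number in the labels. Over 2673 genes of at least 100 CPM, the deviations from segment means had a median r of 0.072 within an oocyte (28 pairs) and of -0.036 between oocytes (87 pairs).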

Additional observations from a re-analysis of the deposited data

Results flagged for a closer look

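Among the 6 RNAs, the 12 groups of 4 libraries (segments A and C) were checked with Dixon's criterion, and in 0 of them did 1 library stand far from the rest. The groups of 3 libraries (segments B, D and E) were not checked. They hold the high libraries of pawr in B (oocyte 2, 64.8 CPM) and of ldlrad4 in E (oocyte 4, 252 CPM).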

How the results depend on the processing

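The rise of all 6 RNAs from A to E kept its direction with the other scalings, without oocyte 1 and without any single library. For the RNAs other than pawr it also did so with other prior counts and with the oocyte as a block. As every library of E lay above every library of A, leaving out libraries could not reverse the rise. Nothing is read from its direction in these runs. Of the summary values and counts recomputed, 493 stayed within their limits and 80 moved. A count of calls stayed if it changed by no more than 1.5-fold, and a count of called list genes if it was the same. For a fold change, share or step the limit was the SD of that RNA between oocytes, and a step also had to keep its place. Leaving out 1 library can shift a mean by only part of such an SD, so the tally is not read as a measure of robustness. Leaving out 1 library at a time, the log2 fold change from A to E ranged from 5.69 to 6.03 for slbp2, 4.84 to 5.48 for bach2a, 3.70 to 4.15 for ino80db, 4.69 to 5.26 for sh2d5, 8.24 to 9.02 for the lower bound of pawr and 6.79 to 8.71 for ldlrad4. The share in E ranged from 74.5% to 76.2%, 69.8% to 77.4%, 61.5% to 68.5%, 64.5% to 71.6%, 43.5% to 59.3% and 43.9% to 74.6% in that order. The largest step ranged from 2.26 to 2.45, 2.20 to 2.78, 1.96 to 2.41, 1.64 to 2.01, 3.78 to 6.14 and 2.48 to 4.62. For slbp2 and bach2a that step lay between D and E in each of these settings.

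With the authors' size factors, under which the all-gene median moves by 0.22 (E against A) and -0.38 (E against D), the share of slbp2 in E was 70.4% and its largest step 1.92, the log2 fold change of bach2a was 5.37, and the largest steps of ino80db, sh2d5 and ldlrad4 were 1.93 (B to C), 1.81 (C to D) and 2.81 (A to B). With scaling to spike-in reads (oocytes 2 to 4) the shares of slbp2, ino80db and sh2d5 were 81.2%, 73.6% and 80.5%, the log2 fold changes of bach2a, ino80db and sh2d5 were 5.46, 4.26 and 5.34, and the largest steps were 2.99 for slbp2, 2.73 (B to C) for ino80db, 2.59 for sh2d5 and 4.99 (A to B) for ldlrad4. Without oocyte 1 the share in E was 73.4% for slbp2 and 38.6% for pawr, and the largest steps were 2.24 for ino80db, 1.93 for sh2d5 and 4.99 for ldlrad4. The step sizes of pawr and ldlrad4 include libraries at or under 3 reads and depend on the prior count. The causes were not tested.

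Counts of called genes in the order E against A and then the steps from A to E were 240, 1, 6, 13 and 22. Leaving out single libraries they were 162 to 256, 0 to 2, 2 to 7, 3 to 14 and 11 to 30. DESeq2 gave 687, 428, 398, 433 and 413, and called 1 partner list gene. For the 4 steps, the counts were 6, 19, 29 and 39 with no filter and 4, 24, 33 and 36 with the oocyte as a replicate block. Without oocyte 1 they were 0 (333 genes at an unadjusted p under 0.05), 2, 4 and 10, beside 154 between the ends. B against A gave 10 with the authors' factors, 2 without oocyte 2 and 5 without oocyte 4, C against B gave 12 without oocyte 4, and D against C gave 7 without oocyte 2 and 29 without oocyte 4. The block changed the call of no list gene between E and A and kept that of SNRPB from C to D (adjusted p of 0.00076).

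Depth limits what can be said of pawr and ldlrad4, whose levels in A rest on 0 to 9 reads per library, and of list genes under 50 CPM.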
